A study of Homo sapiens with 6 samples.

Results

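The EGF receptor family and its ligands were measured in SUM159 cells, an established human triple negative breast cancer line, after 6 days of three-dimensional matrigel culture. The family was taken by name as 10 genes, the 4 receptor genes EGFR, ERBB2, ERBB3 and ERBB4 and the 6 ligand genes AREG, EREG, HBEGF, TGFA, BTC and NRG1. Of these, 9 had a transcript cluster (the group of array probes that measures 1 gene or transcript) carrying their symbol alone, among 22148 transcript clusters on the arrays. AREG was not analysed here. NRG1 had 2 such clusters and was represented by the brighter one. RNA came from 3 control samples and 3 samples with stable shRNA knockdown of TGFBR3, the gene of the type III TGF-β receptor (TβRIII-KD), and no growth factor or drug treatment is given for either group in the labels. The knockdown cells were made with lentivirus and puromycin selection. For its knockdown immunoblot, the paper describes SUM159 controls that stably express a control vector, and the sample titles here read only control. After a first xenograft test, the paper used a single shRNA. Each group is 1 cell population, so the knockdown and other ways in which the populations differ cannot be told apart. Nothing states that the 3 samples of a group were grown separately, so p-values cover only the spread among these arrays, which may be of technical origin.

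The receptors are transmembrane tyrosine kinases that pair with one another when a ligand binds. EGFR binds the EGF-type ligands, ERBB3 and ERBB4 bind neuregulins, ERBB2 has no ligand of its own and acts as the preferred partner, and the kinase of ERBB3 is weak. Ligands are made as membrane proteins and are released by metalloproteinases at the cell surface. The signal runs through adaptor proteins to the RAS to ERK cascade and to PI3K and AKT, and it is ended by receptor internalization and by inhibitors such as ERRFI1 and LRIG1. In the breast this family drives epithelial growth, and triple negative tumors are defined in part by the absence of ERBB2 amplification.

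Values are RMA signals on the log2 scale as the authors deposited them. The groups were compared by limma over all transcript clusters, with Benjamini-Hochberg adjustment. A gene is said to rise or fall when its adjusted p was under 0.05, and it passed the cutoff when the log2 fold change also exceeded 0.5 in size. The paper likewise used limma for these arrays and this cutoff for its pathway analysis. TGFBR3, the target, fell by 0.79 log2 units (SE 0.13, adjusted p = 0.0145) in TβRIII-KD, and this call was lost without control 1, control 2 or TβRIII-KD 2 (adjusted p 0.0770, 0.0554 and 0.0625). The array TβRIII-KD 3 stood apart from the others on the second principal component, which held 21.9% of the variance. The 8 mesenchymal and basal mammary markers measured had signals above those of 48.2% (KRT14) to 99.8% (FN1) of transcript clusters, with VIM at 99.6% and KRT5 at 50.6%. The 10 luminal markers ranged from 8.15% (PGR) to 97.9% (KRT8), with KRT18 at 95.5%, GATA3 at 57.8%, ESR1 at 24.5%, EPCAM at 17.3% and CDH1 at 11.1%, so that the lists were not separated by level. The mean signal of the mesenchymal and basal list was 10.79 to 10.80 in controls and 10.57 to 10.63 in TβRIII-KD, where KRT5 and SPARC fell (log2 fold changes of -0.93 and -0.45). That of 9 markers of other cell types was 7.18 to 7.24 and 6.96 to 7.07, with PECAM1, an endothelial marker, the 1 gene of that list past the cutoff. That of the luminal list overlapped between the groups, at 7.50 to 7.54 and 7.45 to 7.63, and GATA3 was the 1 gene of that list that rose. KRT8 and KRT18 were lower in TβRIII-KD without overlap, with log2 fold changes of -0.36 and -0.38. Neither passed the test in limma (adjusted p = 0.0871 and 0.217). GAPDH did not pass the test (adjusted p = 0.998). Whether these shifts have a part in the values below was not tested.

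NRG1 was the 1 member that rose, with a signal in TβRIII-KD that was 1.81-fold that of control. NRG1 encodes neuregulin 1, the ligand of ERBB3 and ERBB4. In a bulk culture, a change in the number of cells that express a gene and a change in RNA per cell cannot be told apart, for a rise as for a fall. Its log2 signals were 6.73, 6.69 and 6.26 in controls 1 to 3 and 7.54, 7.34 and 7.36 in TβRIII-KD 1 to 3. The lowest TβRIII-KD array lay 0.61 above the highest control array, and the controls were spread more widely (SD 0.26) than the TβRIII-KD arrays (SD 0.11, n = 3 each). The log2 fold change was 0.85 (SE 0.13, adjusted p = 0.0100, 95% confidence interval 0.56 to 1.15). The exact permutation test over the 6 arrays gave a two-sided p of 0.1, the smallest that 3 arrays against 3 allow. Of all transcript clusters, 0.777% passed this cutoff upward and 1.49% downward, or 2.26% in all, against 1 of 9 members higher and 0 lower. At an adjusted p under 0.05 without the fold limit, 1.24% of all transcript clusters lay higher in TβRIII-KD and 2.11% lower, or 3.35% in all, and NRG1 was again the 1 member. At an unadjusted p under 0.05 in limma, 3 of 9 members were called (NRG1, EREG and HBEGF), against 15.2% of all transcript clusters.

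The second transcript cluster of NRG1 also rose. It read 6.40, 6.12 and 6.11 in controls and 7.29, 7.02 and 6.98 in TβRIII-KD, and the groups did not overlap. Its log2 fold change was 0.89 (SE 0.11, adjusted p = 0.00484). The 2 clusters were read on the same arrays and are not independent samples. The brighter one had a mean signal of 6.99, below the median of 7.70 over all transcript clusters, so a filter at that median leaves NRG1 untested. Without any 1 array, its log2 fold change lay between 0.71 and 0.94 and its adjusted p between 0.0145 and 0.0459, and without TβRIII-KD 3 they were 0.88 and 0.0152. The adjusted p was 0.176 in the methods' t-test after Benjamini-Hochberg adjustment, in which 1 transcript cluster of all was higher and 16 were lower at the cutoff.

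**Figure D1:**
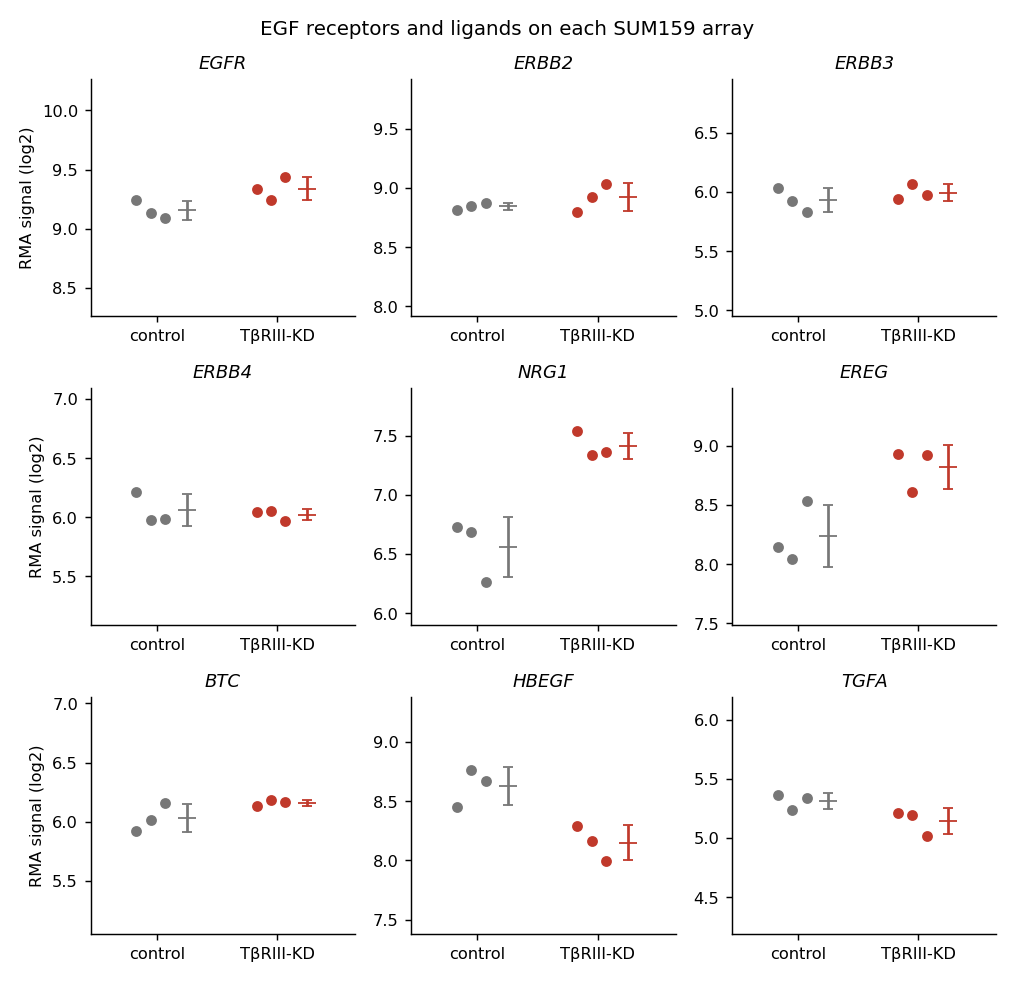
RMA signal (log2) of the 9 members, where grey dots are single control arrays, red dots are single TβRIII-KD arrays, and the marks next to them give the group mean ± SD (n = 3). Each panel spans 2 log2 units, and levels are not comparable between panels. The arrays of NRG1 and EREG are higher and those of HBEGF and TGFA lower in TβRIII-KD without overlap, and those of the 4 receptors and BTC overlap.

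EREG and HBEGF, which both encode ligands of EGFR and ERBB4, differed from control in opposite directions, and neither passed the test. EREG encodes epiregulin. The arrays read 8.14, 8.04 and 8.54 in controls and 8.93, 8.61 and 8.92 in TβRIII-KD. The groups were separated by 0.07, the distance from control 3 to TβRIII-KD 2. The average difference was 0.58 log2 units (SE 0.14, adjusted p = 0.0699, 95% confidence interval 0.26 to 0.91). Without control 3, it was 0.73 and passed the cutoff (adjusted p = 0.0287), which made 2 members higher. Without any other array, the adjusted p was 0.0870 to 0.247. HBEGF encodes heparin-binding EGF-like growth factor, which binds heparan sulfate. On the log2 scale it read 8.45, 8.76 and 8.67 in controls and 8.29, 8.16 and 7.99 in TβRIII-KD, with 0.16 between the groups. On average HBEGF differed by -0.48 (SE 0.11, adjusted p = 0.0535, 95% confidence interval -0.73 to -0.23), with 1.39-fold as much signal in controls. The adjusted p of HBEGF was 0.0369 to 0.266 over the alternatives, of which 5 gave a value under 0.05 and none of those a log2 fold change beyond 0.5 in size.

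The sequences before the starts of EREG and HBEGF are shown because these were the members nearest to the threshold, a choice made after their values were seen. None is shown for NRG1. Each is the 250 bases before the RefSeq start on the gene's strand in GRCh38.p14, chr4:74364895-74365144 (plus strand) for EREG and chr5:140346604-140346853 (minus strand) for HBEGF, with TATAAA and GGGCGG, on either strand, in capitals (GGGCGG reads CCGCCC on the other strand).
EREG: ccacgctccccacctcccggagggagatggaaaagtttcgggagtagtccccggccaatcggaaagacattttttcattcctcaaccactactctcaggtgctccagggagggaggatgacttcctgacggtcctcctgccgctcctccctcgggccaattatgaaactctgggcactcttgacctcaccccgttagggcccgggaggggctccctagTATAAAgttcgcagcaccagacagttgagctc
HBEGF: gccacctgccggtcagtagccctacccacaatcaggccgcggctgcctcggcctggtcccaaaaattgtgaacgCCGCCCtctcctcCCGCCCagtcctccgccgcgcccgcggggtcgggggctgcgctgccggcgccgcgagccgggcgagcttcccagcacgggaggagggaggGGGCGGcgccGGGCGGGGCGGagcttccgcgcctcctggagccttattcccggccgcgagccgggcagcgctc
The EREG sequence holds TATAAA once, 32 bases before the start, and no GGGCGG. Of 35116 windows of the same length before RefSeq starts, 10.7% hold TATAAA. The HBEGF sequence holds GGGCGG or its complement 5 times, the last pair overlapping, and no TATAAA, and 42.6% of all windows hold GGGCGG. The AP-1 motif TGANTCA is in neither and in 6.57% of all windows. The share of G and C was 58.0% in EREG and 76.4% in HBEGF. A match to these letters is not a measured binding site.

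The remaining ligands lay closer to control. TGFA encodes transforming growth factor alpha, a ligand of EGFR, and had log2 signals of 5.36, 5.24 and 5.33 in controls and 5.21, 5.20 and 5.01 in TβRIII-KD. The groups were apart by 0.02 only, and the log2 fold change was -0.17 (SE 0.08, adjusted p = 0.383). BTC encodes betacellulin, a ligand of EGFR and ERBB4. Controls read 5.93, 6.01 and 6.16 and TβRIII-KD arrays 6.13, 6.18 and 6.17, which overlap. The log2 fold change was 0.13 (SE 0.08, adjusted p = 0.516). In all, the arrays of the groups did not overlap for 4 of 9 members, with NRG1 and EREG higher and HBEGF and TGFA lower, against 20.7% of all transcript clusters.

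EREG and BTC belong to a run of EGF-type ligand genes on chromosome 4, where EPGN, EREG, AREG and BTC follow one another between 74308470 and 74794523 (GRCh38.p14) with no other protein-coding gene annotated between them. EPGN encodes epigen and had log2 signals of 4.04, 3.99 and 4.11 in controls and 4.21, 4.13 and 4.47 in TβRIII-KD. Along the run, in which AREG was not analysed, the log2 fold changes were 0.22 for EPGN (SE 0.10, adjusted p = 0.335), 0.58 for EREG and 0.13 for BTC. Each of these was above 0, as were those of 12107 of 22148 transcript clusters, and none passed the test. Without TβRIII-KD 3, EPGN was at 0.12, and the signal of EPGN exceeded that of 2.62% of transcript clusters. Of the 5 ligands outside the named members, EGF, EPGN, NRG2, NRG3 and NRG4, 0 passed the test in limma, 0 had an unadjusted p under 0.05 there and 0 were called at the cutoff by the methods' t-test after adjustment. Their log2 fold changes were between -0.24 for EGF and 0.22 for EPGN. The other neuregulins, NRG2 (0.15), NRG3 (0.07) and NRG4 (-0.03), had smaller values than NRG1, and the difference between these genes was not tested.

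**Figure D2:**
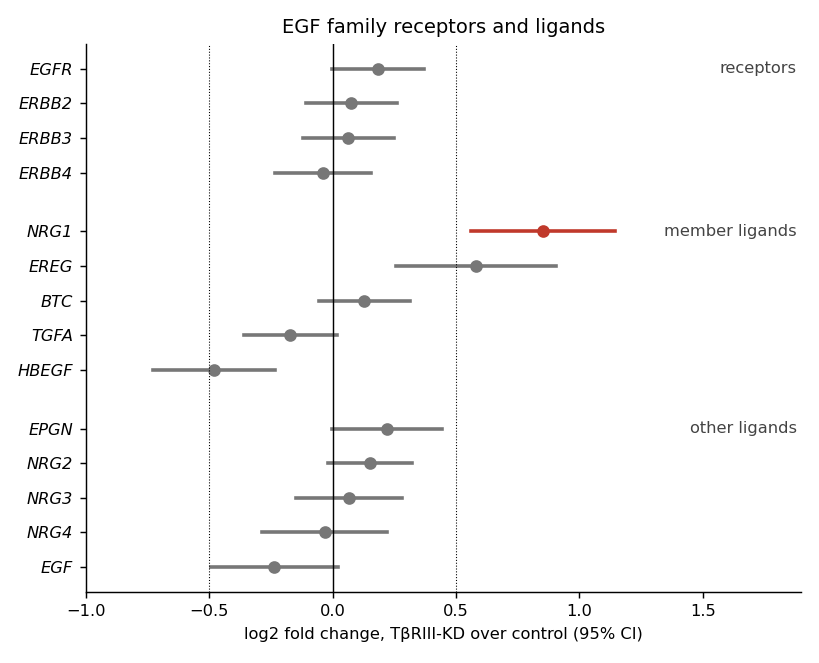
The log2 fold change between TβRIII-KD and control (dots) of the 4 receptors, the 5 member ligands and 5 other ligands, drawn with limma 95% confidence intervals (horizontal lines, 3 arrays in each group). Dotted lines mark the fold limit of 0.5, and red marks genes past the cutoff. NRG1 lies highest at 0.85 and HBEGF lowest at -0.48, and the receptors lie between -0.04 and 0.18.

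**Figure D3:**
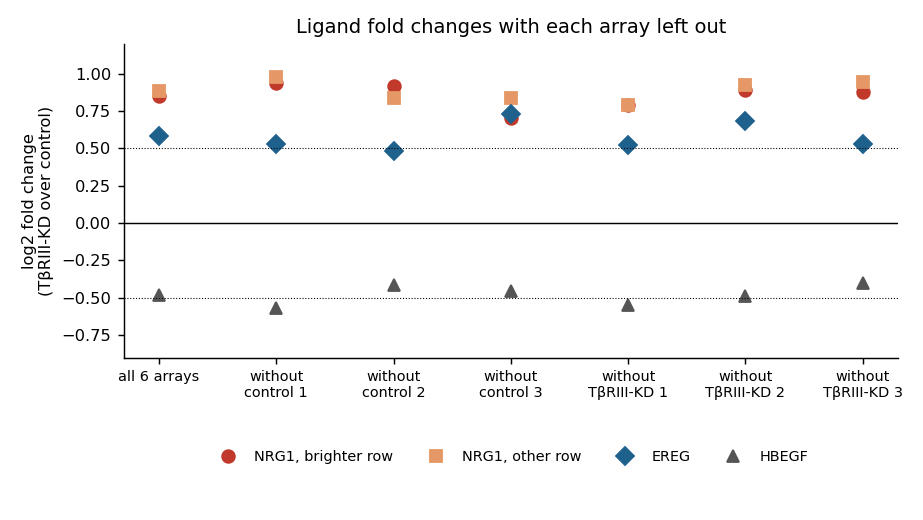
The log2 fold change between TβRIII-KD and control of both transcript clusters of NRG1, for EREG and for HBEGF, from all 6 arrays and with each array left out in turn, with dotted lines at the fold limit of 0.5. Both NRG1 clusters stay above 0.7, EREG lies between 0.48 and 0.73 and HBEGF between -0.57 and -0.40.

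None of the 4 receptors passed the test, and the confidence intervals held their log2 fold changes within 0.5 of 0 in either direction. EGFR, the receptor of EGF, TGFA, AREG, EREG, HBEGF and BTC, had the largest difference among them. Its log2 signals were 9.25, 9.13 and 9.09 in controls and 9.34, 9.24 and 9.44 in TβRIII-KD. The groups overlapped through control 1 and TβRIII-KD 2, which were nearly equal. The log2 fold change was 0.18 (SE 0.08, adjusted p = 0.337, 95% confidence interval -0.003 to 0.37). ERBB2, the partner receptor without a ligand, had log2 signals of 8.81, 8.85 and 8.87 in controls and 8.80, 8.92 and 9.04 in TβRIII-KD, so that TβRIII-KD 1 lay below all controls. Its log2 fold change was 0.08 (SE 0.08, adjusted p = 0.722, 95% confidence interval -0.11 to 0.26).

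The neuregulin receptors ERBB3 and ERBB4 overlapped widely between the groups. ERBB3 had log2 signals of 6.03, 5.92 and 5.83 in controls and 5.94, 6.07 and 5.98 in TβRIII-KD, which differed by 0.06 on average (SE 0.08, adjusted p = 0.774, 95% confidence interval -0.12 to 0.25). ERBB4 had log2 signals of 6.21, 5.98 and 5.99 in controls and 6.04, 6.05 and 5.97 in TβRIII-KD, for an average difference of -0.04 (SE 0.09, adjusted p = 0.886, 95% confidence interval -0.23 to 0.16). Without control 1, the highest of its arrays, the log2 fold change of ERBB4 was 0.04. The signals of ERBB3 and ERBB4 exceeded those of 18.4% and 19.6% of transcript clusters, those of BTC, TGFA and NRG4 of 20.4%, 9.48% and 5.80%. Background was not measured in the values used, so that a low level and no expression cannot be told apart for these genes or for EPGN.

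Of the receptor inhibitors, LRIG1 and ERRFI1 fell. LRIG1, a transmembrane protein that binds the receptors and promotes their degradation, fell by 0.86 log2 units (SE 0.08, adjusted p = 0.000916), so that controls had 1.82-fold as much signal. Its log2 signals were 8.74, 8.84 and 8.63 in controls and 7.87, 7.87 and 7.86 in TβRIII-KD, where the 3 arrays were nearly equal. ERRFI1, a cytoplasmic protein that binds the kinase domain of EGFR and blocks it, fell by 0.61 (SE 0.11, adjusted p = 0.0240). The arrays read 12.36, 12.12 and 12.19 in controls and 11.83, 11.43 and 11.58 in TβRIII-KD, without overlap. Of 17 receptor inhibitors and ubiquitin ligases measured, these 2 were lower and 0 were higher at the cutoff, against 1.49% and 0.777% of all transcript clusters. At an unadjusted p under 0.05 in limma, 1 was higher and 2 were lower, against 15.2% of all transcript clusters in either direction. The median log2 fold change was 0.04 against 0.01 over all transcript clusters. LRIG1 stayed past the cutoff without any 1 array (adjusted p 0.00219 to 0.00883), while ERRFI1 was lost without control 1, control 3 or TβRIII-KD 2 (adjusted p = 0.112, 0.0792 and 0.0830).

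Of 13 partners and chaperones of the receptors, CD9 rose and MUC1 fell, and both stayed past the cutoff without any 1 array. CD9 is a tetraspanin that associates with the membrane form of HBEGF. It read 8.08, 8.11 and 7.94 in controls and 9.41, 9.19 and 9.07 in TβRIII-KD, a rise of 1.18 (SE 0.10, adjusted p = 0.000757). MUC1, a membrane mucin that associates with the receptors, had log2 signals of 9.0, 8.96 and 9.22 in controls and 8.14, 8.13 and 8.37 in TβRIII-KD, and it fell by 0.85 (SE 0.10, adjusted p = 0.00338). The groups did not overlap for either gene. At the cutoff, 1 gene of the list was higher and 1 was lower, against 0.777% and 1.49% of all transcript clusters. At an unadjusted p under 0.05 in limma, 4 were higher and 1 was lower, against 15.2% of all transcript clusters in either direction. The median log2 fold change of the list was 0.03. Without TβRIII-KD 1, 3 genes of the list were higher at the cutoff in place of 1.

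Of 26 adaptors and proximal effectors, 1 was higher and 1 was lower at the cutoff, against 0.777% and 1.49% of all transcript clusters. At an unadjusted p under 0.05 in limma, 2 were higher and 6 were lower, against 15.2% of all transcript clusters in either direction. The median log2 fold change of these 26 was -0.02. EPS8, a substrate of the EGFR kinase that acts on actin, rose by 0.56 (SE 0.08, adjusted p = 0.00891), from log2 signals of 10.71, 10.94 and 10.76 to 11.40, 11.31 and 11.37. VAV3, a guanine nucleotide exchange factor phosphorylated by receptor tyrosine kinases, fell by 0.73 (SE 0.13, adjusted p = 0.0235), from 7.20, 7.35 and 6.93 to 6.52, 6.20 and 6.57. For both genes each TβRIII-KD array lay outside the control range. EPS8 was lost without control 1 (adjusted p = 0.0534), and VAV3 without control 1, control 2, TβRIII-KD 1 or TβRIII-KD 2 (adjusted p = 0.107, 0.0764, 0.0503 and 0.0804). STAT3, a transcription factor downstream of the receptors that was singled out after its value was seen, fell by 0.37 (adjusted p = 0.0396), within the fold limit, and lost the call whichever array was left out (adjusted p 0.0591 to 0.134).

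**Figure D4:**
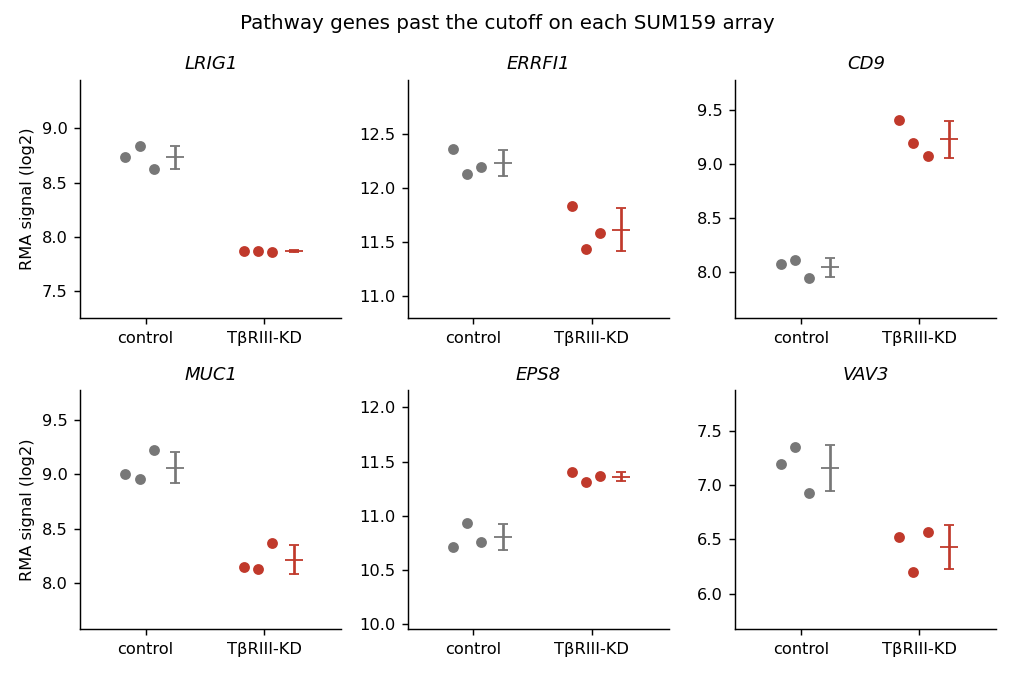
RMA signal (log2) of the 6 pathway genes past the cutoff, where grey dots are single control arrays, red dots are single TβRIII-KD arrays, and the marks next to them give the group mean ± SD (n = 3). Each panel spans 2.2 log2 units. CD9 and EPS8 are higher and LRIG1, ERRFI1, MUC1 and VAV3 lower in TβRIII-KD without overlap.

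The lists of sheddases, of endocytosis and sorting genes, and of the RAS to ERK and PI3K to AKT genes held no gene past the test. Of 12 sheddases and their partners, 0 passed in limma, and the methods' t-test called 0 at the cutoff after adjustment. At an unadjusted p under 0.05 in limma, 3 were called, all lower, against 15.2% of all transcript clusters in either direction. These 3 were ADAM17 and, named after their values were seen, the inhibitor TIMP3 (log2 fold change -0.76, adjusted p = 0.141, and -0.47 without control 3) and the rhomboid protease RHBDL2 (-0.20, adjusted p = 0.300). ADAM17, the main enzyme that releases TGFA, AREG, EREG and HBEGF, had log2 signals of 9.63, 9.72 and 9.76 in controls and 9.40, 9.35 and 9.49 in TβRIII-KD. These do not overlap, and the log2 fold change was -0.29 (SE 0.08, adjusted p = 0.0866). Of 22 endocytosis and sorting genes, 9 genes of the RAS to ERK cascade and 12 genes of the PI3K to AKT branch, 0 passed in limma and 0 were called at the cutoff by the methods' t-test after adjustment. Each of these lists had 2 genes at an unadjusted p under 0.05 in limma, against the same 15.2% of all transcript clusters. AP2M1, KSR1 and RPTOR, named after their values were seen, were those without the smallest p. The genes with the smallest p were the sorting protein STAM2 (0.26, adjusted p = 0.113), the ERK kinase MAPK3 (-0.18, adjusted p = 0.274) and the mTOR complex subunit RICTOR (0.24, adjusted p = 0.198).

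Transcripts that EGF receptor signalling is known to induce did not move one way. Of 25 measured, 1 rose and 2 fell at an adjusted p under 0.05, against 1.24% and 2.11% of all transcript clusters. Of the 25, 0 passed the cutoff in limma. At an unadjusted p under 0.05 in limma, 4 were higher and 7 were lower, against 15.2% of all transcript clusters in either direction. SPRY2, an inhibitor of receptor tyrosine kinase signalling that was named after its values were seen, lay near the cutoff, with a log2 fold change of 0.51 and an adjusted p of 0.0596. It passed the cutoff with all 6 arrays under moderation with a trend (adjusted p = 0.0470), array weights (0.0348), the filter at the median signal (0.0430) and repeated quantile normalization (0.0438), and without TβRIII-KD 2 (0.65, adjusted p = 0.0216), each of which made 1 gene of the list higher. Over all its alternatives with adjustment the adjusted p was 0.0216 to 0.292. Without TβRIII-KD 3, JUN was lower at the cutoff (-0.54, adjusted p = 0.0169). DUSP4, a phosphatase that inactivates ERK, fell by 0.43 (SE 0.07, adjusted p = 0.0136), from log2 signals of 7.69, 7.63 and 7.65 to 7.28, 7.17 and 7.22. The transcription factor subunits JUN and FOSL1, named after their values were seen, had log2 fold changes of -0.47 (adjusted p = 0.0320) and 0.39 (adjusted p = 0.0300), so that partners in the same AP-1 dimers differed in direction. The immediate early gene EGR1 spread widely in both groups. It read 10.86, 10.98 and 11.64 in controls 1 to 3 and 10.40, 10.96 and 11.62 in TβRIII-KD 1 to 3. Its signal thus increased with the replicate number in both groups. Nothing states whether same-numbered arrays share a source, and the correlations over all transcript clusters given below cannot decide it. The median log2 fold change of the list was -0.09. The call of DUSP4 was lost without control 1, control 3 or TβRIII-KD 2 (adjusted p = 0.0810, 0.0611 and 0.0521), and those of JUN and FOSL1 were lost whichever array was left out, except TβRIII-KD 3 (adjusted p 0.0742 to 0.143 for JUN and 0.0649 to 0.138 for FOSL1).

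**Figure D5:**
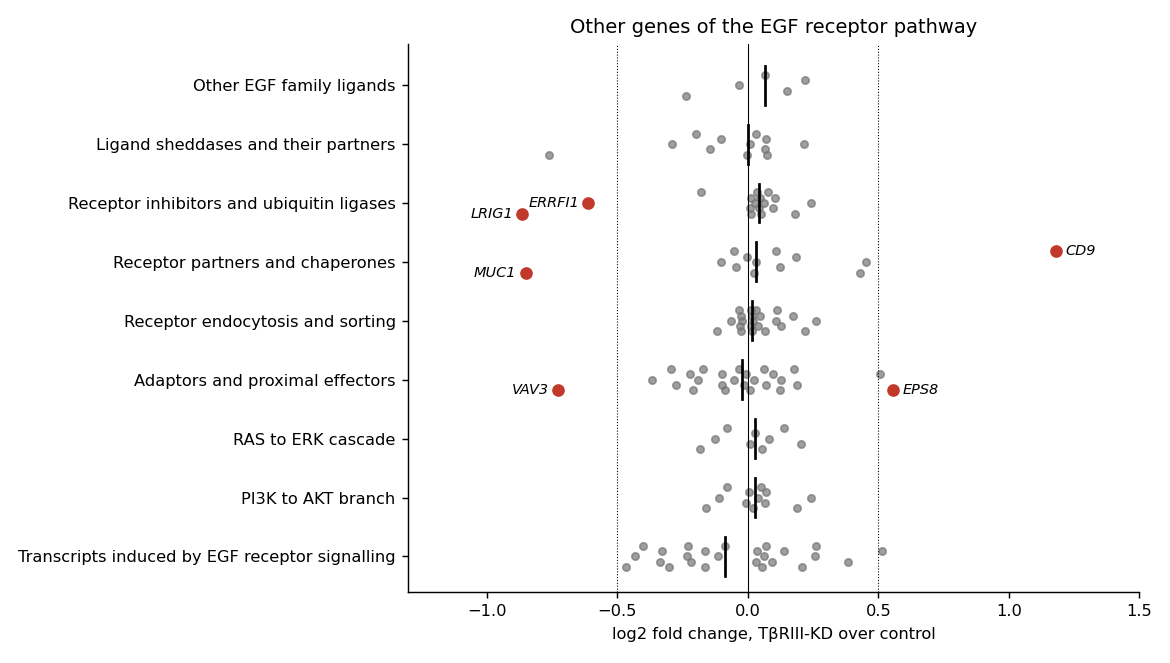
The log2 fold change between TβRIII-KD and control of every gene measured in 9 pathway lists (1 dot each), with a black bar at the list median, dotted lines at the fold limit of 0.5 and red for genes past the cutoff. Medians lie between -0.09 and 0.07, and the 6 genes in red are CD9, EPS8, LRIG1, ERRFI1, MUC1 and VAV3.

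Over the 9 pathway lists, 141 distinct genes were measured, and 2 passed the cutoff upward and 4 downward. These are 1.42% and 2.84% of them, against 0.777% and 1.49% of all transcript clusters. The lists were chosen with earlier results of these data known, so the shares of all lists are a description only. At an adjusted p under 0.05, 3 of the 141 were higher and 7 were lower, against 1.24% and 2.11% of all transcript clusters. Over these genes the median log2 fold change was 0.02. Without control 1, 1 was higher and 2 were lower at the cutoff, without TβRIII-KD 1, 4 were higher, and without TβRIII-KD 2, 2 were lower.

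The genes outside these lists whose signals over the 6 arrays were most like those of NRG1 were AP1S2, a subunit of a clathrin adaptor, C5orf63 and ARHGAP18, with Pearson r of 0.997, 0.996 and 0.995 as a description over 6 arrays that share the group difference. Their log2 fold changes were 0.41 for AP1S2 (adjusted p = 0.0306), 0.12 for C5orf63 (adjusted p = 0.448) and 0.32 for ARHGAP18 (adjusted p = 0.0814). Only AP1S2 passed the test in limma, within the fold limit. Of the genes compared, 25 had an r over 0.98. AP1S2 had log2 signals of 6.41, 6.41 and 6.22 in controls and 6.79, 6.72 and 6.76 in TβRIII-KD, with control 3 lowest as for NRG1.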

How the data were processed

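Affymetrix Human Gene arrays measured 6 RNA samples of SUM159 cells from matrigel culture, grouped by their labels as 3 control and 3 TβRIII-KD. The values are the log2 signals deposited by the authors, made in R 3.0.1 by the oligo package with RMA, which subtracts background, quantile-normalizes and gives 1 value for each transcript cluster. The version of oligo is not given in the sources used here. Precision is limited by the number of arrays.

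The groups were compared with limma 3.58.1 under R 4.3.3 (empirical Bayes moderation without trend, two-sided, no filter, no block), adjusted over 22148 transcript clusters. The cutoff required an adjusted p below 0.05 and a log2 fold change beyond 0.5 in size. Errors are limma's moderated SE. The procedure was tested on simulated data. A gene was taken from clusters with its symbol alone (19129 clusters have 1 symbol), by the highest mean signal. Members and lists were chosen with earlier results of these data known. The genes named are the members, the target, in each list up to 4 genes past the cutoff or else the one of smallest p, and the 3 genes most like NRG1. Others were chosen after their values were seen. Promoter sequences are from RefSeq (GRCh38.p14). Alternatives were other moderation, array weights, the methods' t-test, filters, rescaling, a replicate block, each array left out, other fold limits and other rows per gene.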

Additional observations from a re-analysis of the deposited data

How the results depend on the processing

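NRG1 stayed past the cutoff under other moderation, array weights, rescaling, the replicate block and without any 1 array. Its log2 fold change of 0.85 lost the call in the methods' t-test after adjustment (adjusted p = 0.176) and under a fold limit of 1, and it was not tested among clusters at or above the median signal, so that 0 members were higher under these 3 settings. EREG passed with its log2 fold change of 0.58 in the methods' t-test without adjustment and with the replicate block (adjusted p = 0.0147), so that 2 members were higher under each. Nothing states whether same-numbered arrays were paired. Their deviations from the group means had correlations of -0.06, 0.11 and 0.31, and not every array correlated best with its own number. With 3 arrays in a group, these correlations cannot decide whether the arrays were paired. With the block, 4 pathway genes were higher, SPRY2 passed the cutoff (adjusted p = 0.0259) and so did TIMP3, which made 1 sheddase or partner lower (adjusted p = 0.0414). Without any 1 array, members higher numbered 1 to 2 and lower 0, pathway genes 1 to 4 higher and 2 to 5 lower, and all transcript clusters 88 to 251 higher and 215 to 387 lower, with log2 fold changes of 0.48 to 0.73 for EREG and -0.079 to 0.038 for ERBB4, whose sign turned without control 1 (0.038).

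Of all transcript clusters, 1 was higher and 16 were lower in the methods' t-test after adjustment, where 0 pathway genes were higher and 0 lower, 114 were higher among clusters at or above the median signal, 275 were higher without a fold limit, where 7 pathway genes were lower, and 37 were higher and 103 lower at a limit of 1, where 1 pathway gene was higher and 0 were lower. The cause was not tested.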
